A study of Mus musculus with 16 samples.

Results

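The genes described are 10 known splice targets of the Esrp proteins: Enah, Cd44, Ctnnd1, Exoc7, Slk, Arhgef11, Arhgap17, Scrib, Magi1 and Nf2. They were chosen by name, as genes with epithelial and mesenchymal splice forms, out of 30286 gene symbols in the deposited table, and fill 11 of its 30391 rows because Magi1 has 2. Messenger RNA was measured in C57BL/6 mouse embryos at embryonic day 12, in the ectoderm and the mesenchyme of the facial prominences, the buds that form the face. The 4 groups were KO ectoderm, from Esrp1-/- embryos (Esrp1 knockout), wild-type (WT) ectoderm, KO mesenchyme and WT mesenchyme. Each group had 4 libraries and each library was a pool of 6 to 7 embryos, whose layers had been separated surgically. The table gives 1 value per group in TPM, which corrects for transcript length and sequencing depth. There is therefore no replicate check, no error and no test for any value below, and the depth behind the values is unknown.

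Esrp1 and its paralog Esrp2 are RNA-binding proteins of epithelial cells. They bind near alternative exons and promote or block their use, so that epithelial and mesenchymal cells make different proteins from the same gene. Many of the genes they act on shape the actin cytoskeleton, cell junctions, polarity and membrane traffic. The splice form can change while the amount of RNA from the gene stays the same, and a value per gene does not separate the forms.

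The alternative exons are what these genes are known for. In the GENCODE M21 annotation (GRCm38, the assembly also called mm10) all 10 genes had at least 1 coding cassette exon, an exon that one coding transcript includes and another skips between the same neighbours. Of 10045 measured protein-coding genes with 2 or more coding transcripts, 34.0% had one. The targets were chosen as genes with known splice forms, so a higher share among them follows from that choice. The targets also had more coding transcripts annotated, with a median of 6.5 against 3 for those genes, and the part of this in the share was not tested. Of the 35 cassette exons of the targets, 34 (97.1%) were a multiple of 3 bases long and so keep the reading frame when skipped. Among 5308 such exons of all measured genes the share was 79.2%. The 97.1% also comes from genes chosen for known splice forms, and the part of that choice in it was not tested. Of the 35 exons Enah had 7, Cd44 and Magi1 had 6 each, and Slk and Arhgap17 had 1 each. In Enah and Magi1 some of them overlap, as versions of an exon with different ends, and each version was counted.

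4 of these exons are shown to make clear what the gene-level totals cannot see. They belong to Enah, whose exon is a known epithelial one, to Slk, which had the lowest KO over WT ratio in ectoderm, and to Scrib and Arhgap17, which were past 1.5-fold in mesenchyme. Capitals mark the cassette exon and lower case the 12 bases of the neighbouring exon on each side, both as annotated. The exons lie at chr1:181911597-181911659 (minus strand, 63 bases) in Enah and at chr19:47627648-47627740 (plus strand, 93 bases) in Slk. Those of Scrib and Arhgap17 lie at chr15:76047922-76047996 (minus strand, 75 bases) and chr7:123294472-123294705 (minus strand, 234 bases). Enah's exon is in 1 annotated coding transcript and skipped in 7, and the Slk exon is in 1 and skipped in 1.
Enah: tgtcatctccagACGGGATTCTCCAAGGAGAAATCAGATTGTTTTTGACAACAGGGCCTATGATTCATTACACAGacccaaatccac
Slk: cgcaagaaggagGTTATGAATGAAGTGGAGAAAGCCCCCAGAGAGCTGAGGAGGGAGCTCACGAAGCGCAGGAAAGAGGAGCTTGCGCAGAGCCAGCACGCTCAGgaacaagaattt
Scrib: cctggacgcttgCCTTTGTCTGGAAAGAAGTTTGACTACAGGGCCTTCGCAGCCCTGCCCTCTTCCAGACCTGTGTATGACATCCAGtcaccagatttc
Arhgap17: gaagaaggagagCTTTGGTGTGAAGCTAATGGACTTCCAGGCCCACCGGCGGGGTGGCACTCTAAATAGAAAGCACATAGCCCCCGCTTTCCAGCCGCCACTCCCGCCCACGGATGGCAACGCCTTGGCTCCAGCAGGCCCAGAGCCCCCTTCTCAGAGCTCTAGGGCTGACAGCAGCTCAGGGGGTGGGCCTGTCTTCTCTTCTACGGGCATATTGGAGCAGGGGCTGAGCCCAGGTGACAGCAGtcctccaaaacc

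The targeted gene was lower in KO ectoderm but not at 0. Esrp1 was at 62.9 TPM in KO ectoderm, against 170 TPM in WT ectoderm, and at 1.0 and 1.01 TPM in KO and WT mesenchyme. Esrp2 was at 76.5 TPM in KO ectoderm and 71.8 TPM in WT ectoderm. The part of Esrp1 that was deleted is not given in the labels.

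The tissue labels were checked against marker genes. The 18 ectoderm markers added to 3394 TPM in KO ectoderm and 3966 TPM in WT ectoderm, against 44.4 and 48.2 TPM in KO and WT mesenchyme. The 20 mesenchyme markers added to 914 TPM in KO ectoderm and 470 TPM in WT ectoderm, and to 3327 and 4691 TPM in KO and WT mesenchyme. No marker was at 0 in any group. In KO ectoderm 16 of 20 mesenchyme, all 8 endothelial and all 6 measured muscle markers were at least 1.5-fold higher than in WT. So were 5 of 7 neuron, 3 of 6 measured macrophage and 1 of 7 red blood cell markers, but 0 of the 18 ectoderm markers. Of those 18 markers 2 were at least 1.5-fold lower, Krt15 (log2 ratio -1.70) and Esrp1 itself. Of all genes compared in ectoderm, 4.92% were higher and 0.452% lower. The gain of the median mesenchyme marker equalled 10.8% of its excess in WT mesenchyme. In bulk tissue, fewer cells of a type and less RNA per cell cannot be told apart.

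All 10 targets were expressed in both layers, at levels that span a wide range. The actin and adhesion genes Enah and Ctnnd1 were the most abundant, and the hyaluronan receptor Cd44 the least. Enah, an Ena/VASP protein that extends actin filaments, was at 135 TPM in KO ectoderm and 140 TPM in WT ectoderm, and at 147 TPM in KO mesenchyme and 132 TPM in WT mesenchyme. Ctnnd1, the p120 catenin that stabilises cadherins at the membrane, was at 113 and 114 TPM in KO and WT ectoderm and at 92.2 and 96.3 TPM in KO and WT mesenchyme. The highest and lowest of the 4 groups were 1.12-fold apart for Enah and 1.24-fold for Ctnnd1. Cd44 was at 5.06 TPM in KO ectoderm and 4.54 TPM in WT ectoderm, and at 4.97 TPM in KO mesenchyme and 5.68 TPM in WT mesenchyme. At this level it exceeded 20.4% of the genes at 1 TPM or more in WT ectoderm, while Enah exceeded 93.1%.

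The polarity genes differed more, and mostly in mesenchyme. Scrib, a scaffold of the basolateral membrane, was at 70.3 TPM in KO ectoderm and 64.7 TPM in WT ectoderm, but at 43.0 TPM in KO mesenchyme against 77.8 TPM in WT mesenchyme. Its lowest group was KO mesenchyme and its highest WT mesenchyme, 1.81-fold apart. Nf2, which encodes merlin, a membrane-cytoskeleton linker upstream of the Hippo pathway, was at 59.4 and 59.2 TPM in KO and WT ectoderm and at 60.9 and 82.7 TPM in KO and WT mesenchyme. WT mesenchyme stood apart for Nf2, with the other 3 groups between 59.2 and 60.9 TPM.

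Magi1, a scaffold of tight junctions, appears in 2 rows of the table with different values. The row with the higher sum had 18.5 and 20.5 TPM in KO and WT ectoderm and 11.2 and 15.5 TPM in KO and WT mesenchyme. The second row had 13.5 and 15.5 TPM in KO and WT ectoderm and 6.34 and 10.2 TPM in KO and WT mesenchyme. Both rows had the same order of the groups, with WT ectoderm highest and KO mesenchyme lowest. RefSeq lists Magi1 also as an older name of another gene, Cnksr3, and the table has 0 rows named Cnksr3. Which row holds which gene is not given in the sources used here, and the row with the higher sum is used below unless the second is named.

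The GTPase regulators Arhgef11 and Arhgap17 had one pattern in common with Scrib. Arhgef11, a guanine nucleotide exchange factor with a PDZ domain, was at 23.7 and 23.0 TPM in KO and WT ectoderm and at 15.6 and 27.0 TPM in KO and WT mesenchyme. Arhgap17, which inactivates Cdc42 and Rac, was at 20.6 and 18.0 TPM in KO and WT ectoderm and at 13.3 and 22.7 TPM in KO and WT mesenchyme. In Scrib, Arhgef11 and Arhgap17 alike, the order from high to low was WT mesenchyme, KO ectoderm, WT ectoderm and KO mesenchyme. The share of all genes with this order was not counted, so the order is not read as particular to these genes. The 2 ectoderm values were close, above all for Arhgef11 (23.7 and 23.0 TPM).

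The kinase Slk and the exocyst subunit Exoc7 varied in opposite directions. Slk, a Ste20-like kinase that acts on the cytoskeleton, was at 39.4 TPM in KO ectoderm and 48.5 TPM in WT ectoderm, and at 35.6 TPM in KO mesenchyme and 28.2 TPM in WT mesenchyme. Exoc7, which tethers secretory vesicles to the plasma membrane, was at 47.2 TPM in KO ectoderm and 38.1 TPM in WT ectoderm, and at 48.5 TPM in KO mesenchyme and 58.7 TPM in WT mesenchyme. For both genes the 2 WT values lay outside the 2 KO values. Slk was highest in WT ectoderm and Exoc7 highest in WT mesenchyme.

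**Figure D1:**
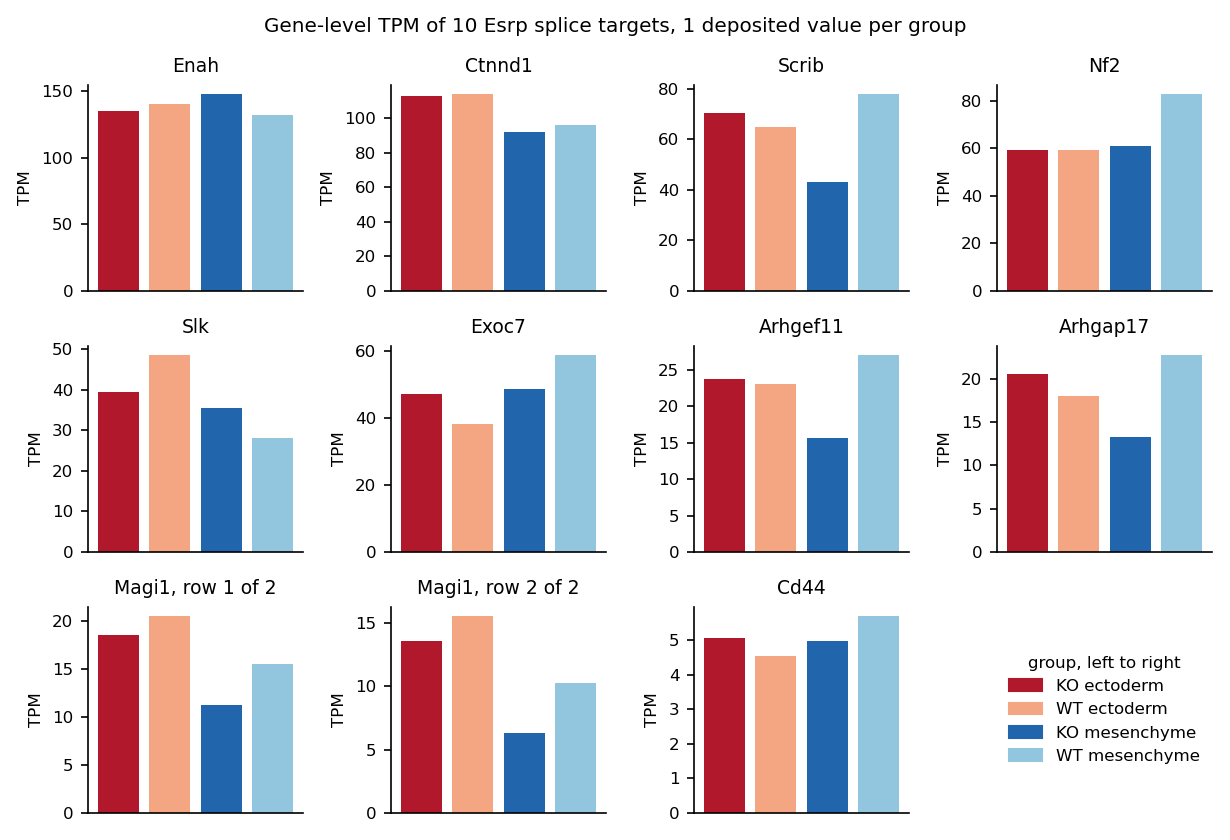
Gene-level TPM (vertical axis, from 0) of each Esrp target in KO ectoderm, WT ectoderm, KO mesenchyme and WT mesenchyme, 1 deposited value per bar, with both rows of Magi1. Scrib, Arhgef11 and Arhgap17 share a low bar in KO mesenchyme (43.0, 15.6 and 13.3 TPM), while Enah and Ctnnd1 are nearly level.

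In ectoderm, where Esrp1 is normally made, none of the 10 targets was 1.5-fold apart between KO and WT. Over all 13935 genes compared, those that averaged 1 TPM or more in the columns compared, 5.37% were past that fold, 4.92% higher and 0.452% lower. Ratios are differences of log2(TPM + 1), a scale on which low genes such as Cd44 differ by less than their TPM do. The highest was that of Exoc7 at 0.30, above 86.6% of all genes compared, and the lowest that of Slk at -0.29, above 2.43% of them. Arhgap17 followed at 0.18, Cd44 at 0.13 and Scrib at 0.12, and on the lower side Magi1 was at -0.14 and -0.18 in its 2 rows. Enah (-0.05), Ctnnd1 (-0.01), Nf2 (0.01) and Arhgef11 (0.04) were nearly level. The median of the 10 targets was 0.02 and that of all genes compared 0.05.

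The ectoderm values as deposited were also taken on the assumption that the gain of mesenchyme markers was RNA carried over from mesenchyme, which was not tested. After 10.8% of the WT mesenchyme level was subtracted from KO ectoderm and the remainder scaled back up, Exoc7 was at 45.8 TPM and Slk at 40.7 TPM, against 38.1 and 48.5 TPM in WT ectoderm. All 10 targets were then still within 1.5-fold of WT. No target was 2-fold apart between the WT layers, so this step could move them little and is no check of the result. It also used WT mesenchyme, although Scrib, Arhgef11 and Arhgap17 were lower in KO mesenchyme.

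In mesenchyme, where Esrp1 and Esrp2 were at about 1 TPM or less, 3 of the 10 targets were at least 1.5-fold lower in KO and none was higher. Scrib had a log2 ratio of -0.84, Arhgef11 of -0.75 and Arhgap17 of -0.73. Of the 14233 genes compared in mesenchyme, 13.4% were at least 1.5-fold lower and 2.33% higher. Scrib was above 4.35% of all genes compared, Arhgef11 above 6.63% and Arhgap17 above 7.39%. Nf2 (-0.44), Magi1 (-0.43), Exoc7 (-0.27), Cd44 (-0.16) and Ctnnd1 (-0.06) were lower by less, and Slk (0.33) and Enah (0.16) were higher. The second row of Magi1 was at -0.61, past 1.5-fold, which makes 4 of 10 if that row is taken. The median of the targets was -0.35, and that of all genes compared -0.12.

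These mesenchyme ratios moved with the base composition of the transcripts. Over the 10942 genes averaging 5 TPM or more, the KO over WT ratio in mesenchyme was lower at higher transcript GC content (Spearman's rho -0.65), and its median was 0.25 in the lowest and -0.55 in the highest of 20 equal bins of GC content. In ectoderm the relation ran the other way and was weaker, with a rho of 0.35 over 11049 genes. Over the 10 targets rho was -0.64 in mesenchyme. These are correlations across genes of the same 4 columns, and genes are not independent. Scrib had the most GC-rich transcripts of the targets, at 61.2%, above 97.1% of all genes compared, and Slk the least, at 45.5%, above 21.4% of them.

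With the GC trend of all genes subtracted, no target was 1.5-fold lower in KO mesenchyme, where 2.35% of all genes were (4.55% were higher). Scrib moved to -0.26, Arhgef11 to -0.47 and Arhgap17 to -0.48, so that Arhgap17 and Arhgef11 had the lowest ratios in place of Scrib. Magi1 was then at -0.28 and Nf2 at -0.17. Enah moved to 0.44 and became the highest of the targets, Slk was at 0.29, and Exoc7 turned to 0.15. In ectoderm the same step left Slk at -0.29 and Exoc7 at 0.21, and turned Scrib to -0.09. Arhgef11 was then at -0.01 and Nf2 at -0.03. The kind of index also differed, with 2 barcodes per library in 2 of 4 KO and 0 of 4 WT mesenchyme libraries, and in 2 of 4 KO and 1 of 4 WT ectoderm libraries. Of the 20 mesenchyme markers 10 were at least 1.5-fold lower in KO mesenchyme (8 with the GC trend subtracted). As deposited, 3 of 7 muscle, 2 of 8 endothelial and 1 of 14 measured ectoderm markers were also lower. Higher were 5 of 7 neuron and 1 of 7 red blood cell markers. Of all genes compared as deposited, 13.4% were lower and 2.33% higher. The part of the index and of these markers in the result was not tested.

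**Figure D2:**
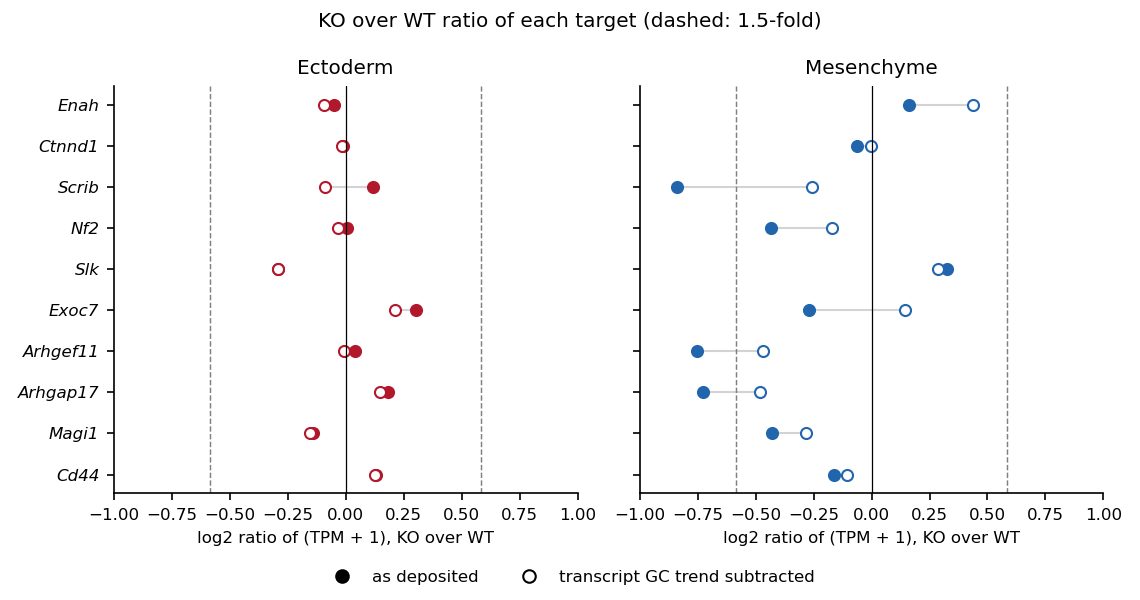
Log2 ratio of TPM plus 1, KO over WT (horizontal axis), of each target in ectoderm and mesenchyme, as deposited (filled) and with the transcript GC trend subtracted (open). Dashed lines mark 1.5-fold, which Scrib (-0.84), Arhgef11 (-0.75) and Arhgap17 (-0.73) pass in mesenchyme as deposited and no target passes with the trend subtracted.

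**Figure D3:**
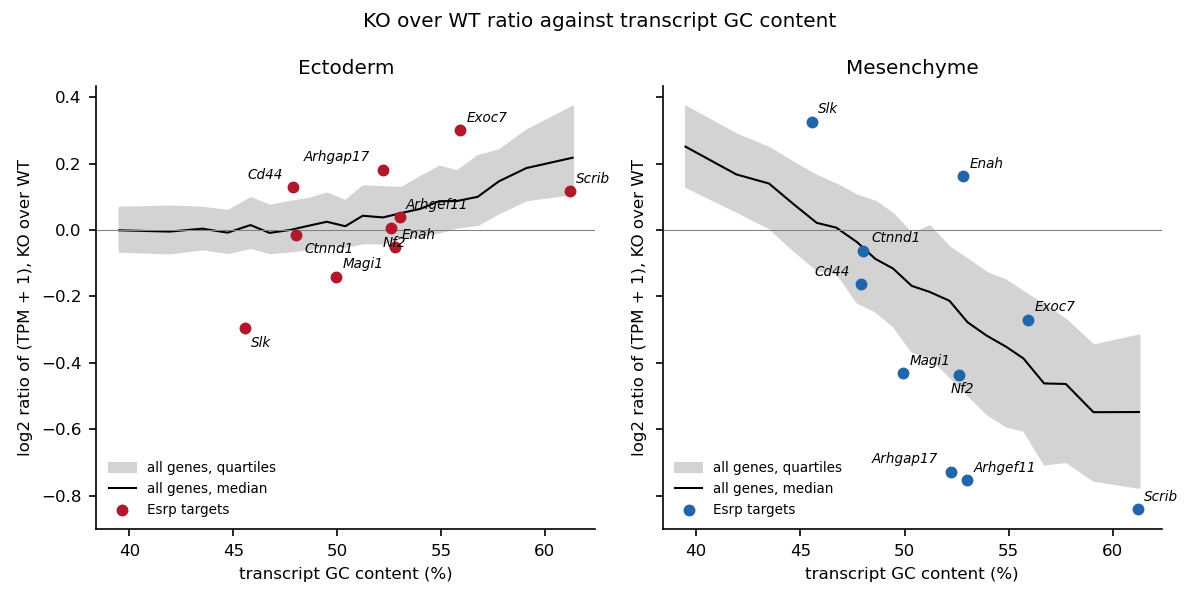
Log2 ratio of TPM plus 1, KO over WT (vertical axis), against the median GC content of a gene's transcripts in percent (horizontal axis), with the median (line) and quartiles (band) of all genes in 20 bins of equal size and the 10 targets as points. In mesenchyme the median of all genes is lower at higher GC content. Scrib (61.2% GC, -0.84), Arhgef11, Arhgap17 and Magi1 lie below the band there, and Enah and Slk above it.

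Between the layers, 0 of 10 targets were 2-fold apart in KO or in WT embryos. In KO embryos 15.9% of 14411 genes compared were past that fold, 9.06% higher in ectoderm and 6.88% lower. In WT embryos 18.9% of 14242 were, 6.88% higher in ectoderm and 12.1% lower. In WT embryos the difference was largest for Slk, 1.72-fold higher in ectoderm (log2 ratio 0.76), and for Exoc7, lower in ectoderm (log2 ratio -0.61). In KO embryos Slk was at 0.14 and Exoc7 at -0.04.

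In KO embryos Scrib (0.69), Magi1 (0.67), Arhgap17 (0.59) and Arhgef11 (0.57) had the highest ectoderm over mesenchyme ratios. In WT embryos Scrib (-0.26), Arhgap17 (-0.32) and Arhgef11 (-0.22) were slightly lower in ectoderm, so that their order of the layers differed between KO and WT, while Magi1 (0.38) had the same order. The median of the targets was 0.21 in KO and -0.24 in WT, and that of all genes 0.00 in KO and -0.15 in WT. With the GC trend subtracted, the ratio of Scrib was 0.24 in KO and 0.06 in WT embryos. That of Arhgap17 was then 0.50 in KO and -0.13 in WT, and that of Arhgef11 0.46 in KO and -0.02 in WT.

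**Figure D4:**
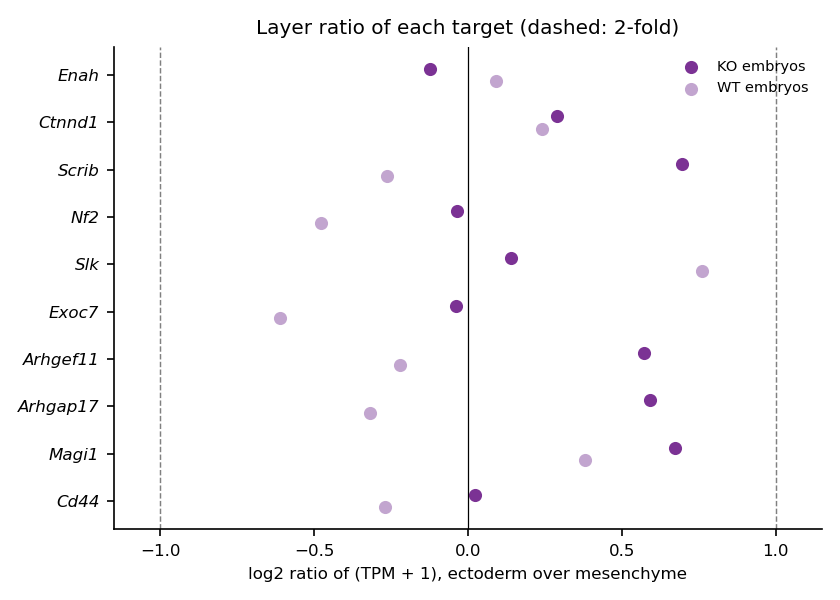
Log2 ratio of TPM plus 1, ectoderm over mesenchyme (horizontal axis), of each target in KO embryos (dark) and WT embryos (light). Dashed lines mark 2-fold, which no target passes, and Scrib, Arhgef11 and Arhgap17 lie right of 0 in KO and left of 0 in WT.

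Taken as a difference of differences, the KO effect in ectoderm minus that in mesenchyme was under 2-fold for all 10 targets. Of 14329 genes compared 7.93% were past it, 7.34% higher and 0.593% lower. Scrib (0.96), Arhgap17 (0.91), Arhgef11 (0.79) and Exoc7 (0.57) had the highest values, and Slk (-0.62), above 1.98% of all genes, the lowest. With the GC trend subtracted Arhgap17 was at 0.62, Arhgef11 at 0.46 and Scrib at 0.17, and Slk at -0.59. Enah, at -0.21 as deposited, was then at -0.54.

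Other reported Esrp targets were described in the same way. None of 25, among them Fgfr2, Itga6 and Numb, was 1.5-fold apart in ectoderm (median -0.02), where 5.37% of all genes were. The highest was Cask, a scaffold kinase, at 28.8 TPM in KO and 22.3 TPM in WT ectoderm, and the lowest Epb41l5, a polarity gene, at 33.5 TPM in KO and 42.1 TPM in WT. In mesenchyme 4 of 25 were lower and none higher (median -0.09), where 13.4% of all genes were lower and the median of all genes was -0.12. Mbnl1, itself a splicing factor, was highest, at 44.2 TPM in KO and 31.6 TPM in WT mesenchyme. Dnm2, the dynamin of endocytosis, was at 34.1 TPM in KO and 61.8 TPM in WT mesenchyme, and Pard3, a polarity protein of apical junctions, at 34.8 TPM in KO and 56.4 TPM in WT. The receptor Fgfr1 was at 160 and 280 TPM and the motor gene Kif13a at 12.7 and 20.4 TPM in KO and WT mesenchyme. With the GC trend subtracted none of the 25 was 1.5-fold apart in either layer. Of all genes 2.35% were then lower and 4.55% higher in mesenchyme, and 0.646% lower and 4.1% higher in ectoderm.

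Of 17 splicing factors with reported roles in such exons, Esrp1 was the 1 gene past 1.5-fold in ectoderm, and none of 15 measured in mesenchyme was. Of all genes compared, 5.37% were past it in ectoderm and 15.7% in mesenchyme. In mesenchyme Khdrbs1, the splicing factor Sam68, was lowest at 130 TPM in KO and 191 TPM in WT (log2 ratio -0.55, and -0.64, past the fold, with the GC trend subtracted), and Ptbp3 highest at 57.5 TPM in KO and 40.2 TPM in WT (0.51). In ectoderm Rbm47 had the highest ratio of these factors, 0.18. The medians were -0.04 in ectoderm and -0.03 in mesenchyme.

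Partners and relatives of the targets were set beside the target itself. For every count of genes lower or higher in KO mesenchyme, the share over all genes compared was 13.4% lower and 2.33% higher, with a median of -0.12. For every count in KO ectoderm that share was 0.452% lower and 4.92% higher. With the GC trend subtracted it was 2.35% lower and 4.55% higher in mesenchyme. Of 8 other exocyst subunits none was 1.5-fold apart in either layer. In ectoderm they ran from -0.09 (Exoc1) to 0.06 (Exoc6b), below the 0.30 of Exoc7, and in mesenchyme from -0.28 (Exoc8) to 0.25 (Exoc5), with medians of -0.00 and -0.03. Of 6 kinases related to Slk none was past the fold. They ran from -0.09 (Taok1) to 0.24 (Taok2) in ectoderm, and from -0.49 (Taok2) to 0.37 (Taok1) in mesenchyme, where Slk was at 0.33. Their medians were 0.12 in ectoderm and -0.12 in mesenchyme.

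Of 9 Ena/VASP and actin partners 1 was higher in KO ectoderm and 4 were lower in KO mesenchyme, while Enah was past the fold in neither layer. Zyx, a focal adhesion protein, had both calls. It was at 49.6 TPM in KO and 32.6 TPM in WT ectoderm (log2 ratio 0.59, and 0.38 with the GC trend subtracted), and at 39.7 TPM in KO and 84.2 TPM in WT mesenchyme (-1.07). The others lower in mesenchyme were Wasf2 (26.2 TPM in KO and 54.5 TPM in WT), an activator of actin nucleation, Evl, a paralog of Enah, and Pfn1, which delivers actin monomers. Wasf2 (-0.69 with the GC trend subtracted) was the 1 partner past 1.5-fold in mesenchyme after that step. Pfn2 was lowest in ectoderm (-0.17) and Raph1 highest in mesenchyme (0.22), and the medians were 0.07 in ectoderm and -0.54 in mesenchyme.

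Of 10 genes of the p120 catenin complex 3 were lower in KO mesenchyme (Jup, Cdh3 and Cdh2), and 1 was higher in KO ectoderm. Cdh2, a cadherin of mesenchyme and neural tissue, was at 26.2 TPM in KO and 10.7 TPM in WT ectoderm. Cdh2 (-0.65) and Cdh3 (-0.61) were past the fold in mesenchyme after the GC subtraction. Cdh3, also 1 of the ectoderm markers, was at 5.79 and 11.3 TPM in KO and WT mesenchyme, against 129 and 133 TPM in KO and WT ectoderm. Jup was at 13.4 and 30.1 TPM in KO and WT mesenchyme, against 120 and 122 TPM in KO and WT ectoderm. Pkp4, a relative of p120 catenin, was lowest in ectoderm (-0.51) and Zbtb33, which encodes the p120 partner Kaiso, highest in mesenchyme (0.32). The medians were -0.06 in ectoderm and -0.26 in mesenchyme.

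Among 15 polarity scaffolds related to Scrib and Magi1, 4 were lower in KO mesenchyme and none in KO ectoderm. Llgl1 (51.1 TPM in KO and 108 TPM in WT), which acts with Scrib, and Dlg5 (47.7 TPM in KO and 92.9 TPM in WT) were lowest, Arhgef7 was also past the fold, and none of the 15 was with the GC trend subtracted. In ectoderm they ran from -0.23 (Lrrc1) to 0.30 (Magi2), and Dlg1 was highest in mesenchyme (0.22). The medians were 0.06 in ectoderm and -0.32 in mesenchyme. Of 9 GTPase regulators and effectors related to Arhgef11 and Arhgap17, 3 were lower in KO mesenchyme, Sh3bp1 (19.3 TPM in KO and 38.7 TPM in WT), Arhgap44 and Rac1, and none after the subtraction. None was past the fold in ectoderm, where they ran from -0.12 (Rock2) to 0.36 (Arhgef1), and Rock2 was highest in mesenchyme (0.27). The medians were 0.03 in ectoderm and -0.31 in mesenchyme.

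Around Nf2, 5 of 17 ERM and Hippo genes were lower in KO mesenchyme, Yap1 (79.7 TPM in KO and 130 TPM in WT), Sav1, Wwc2, Lats2 and Amotl2, and 1 was higher. That gene, Cyr61, a known target of Yap1, was at 109 TPM in KO and 57.5 TPM in WT mesenchyme, and at 74.1 TPM in KO and 41.3 TPM in WT ectoderm. Ctgf, another such target, was also past 1.5-fold in ectoderm, at 8.53 TPM in KO and 5.16 TPM in WT. In mesenchyme Ctgf was not past the fold, at 11.4 TPM in KO and 10.4 TPM in WT. Yap1 was lowest in ectoderm (-0.17). Sav1 (-0.70) and Cyr61 (1.18) were past the fold in mesenchyme after the GC subtraction. The medians were 0.09 in ectoderm and -0.21 in mesenchyme. None of 7 hyaluronan-related genes compared in ectoderm and none of 8 in mesenchyme was past the fold. They ran from -0.05 (Rdx) to 0.54 (Has2, a hyaluronan synthase) in ectoderm, and from -0.20 (Tmem2) to 0.32 (Spp1) in mesenchyme, with medians of 0.23 and 0.05. Spp1, at 1.34 TPM in KO and 0.37 TPM in WT ectoderm, averaged under 1 TPM there and was not compared.

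Over the 118 different genes of these lists, 23 of 116 compared (19.8%) were at least 1.5-fold lower in KO mesenchyme and 1 (0.862%) was higher, beside 13.4% lower and 2.33% higher of all genes. In ectoderm 1 of 117 (0.855%) was lower and 4 (3.42%) were higher, beside 0.452% lower and 4.92% higher of all genes. With the GC trend subtracted, 5 of the 116 were lower and 1 higher in mesenchyme, where 2.35% of all genes were lower and 4.55% higher. The lists were chosen by name and nothing particular to them is read from these counts.

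**Figure D5:**
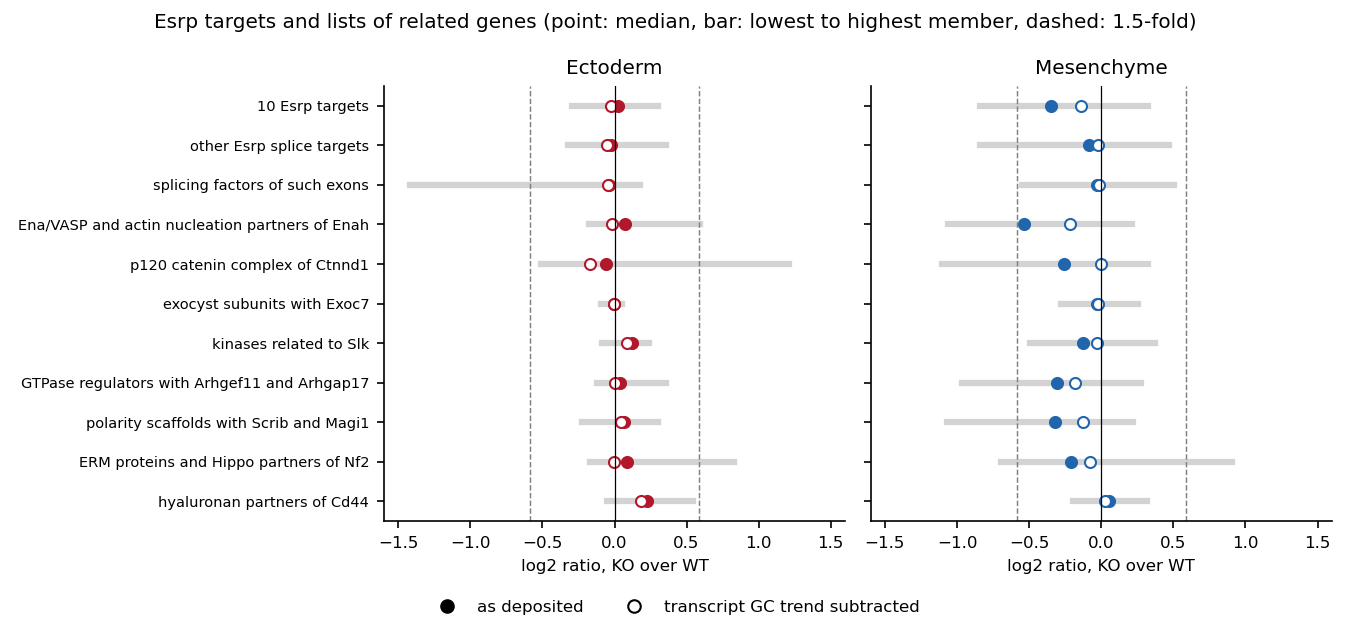
Median (point) and range from the lowest to the highest member (grey bar) of the log2 ratio, KO over WT (horizontal axis), for the 10 targets and 10 lists of related genes in ectoderm and mesenchyme. Filled points are values as deposited and open points have the transcript GC trend subtracted, which moves the median of the targets in mesenchyme from -0.35 to -0.14.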

How the data were processed

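The authors deposited TPM per gene symbol in 1 column per group. The submitters' processing notes name the aligner STAR (2.5.2a), the quantifier kallisto (0.43.0) and the build mm10. The sources used here do not say which of these produced the TPM, from which annotation, or how 4 libraries became 1 column. The planned limma test requires separate libraries and could not be run.

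The members, lists and rules were chosen with earlier results of these data known. All 10 members are named, and of each list the highest, the lowest and those past 1.5-fold, some by name only. Log2 ratios used TPM plus 1 and a mean of at least 1 TPM in the groups compared. Of 103 symbols in several rows, the one with the larger sum over the 4 groups was used. 1 list gene past the fold is not reported here. Older names served for 3 list genes (Cyr61, Ctgf, Tmem2).

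Exons, positions and the median GC content and length of a gene's coding transcripts came from GENCODE M21, which held 99.0% of the symbols. A lowess trend (fraction 0.3, genes at 5 TPM or more, statsmodels 0.14.6) was subtracted, and was tried on simulated data. The simulation had a linear trend and changes unrelated to GC content, so it cannot show whether real changes tied to GC content are kept. The mesenchyme share was the median over 18 markers at least 5-fold higher in WT mesenchyme. Alternatives were other pseudocounts, filters, scalings, these corrections and the second Magi1 row, the last chosen after the data were seen.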

Additional observations from a re-analysis of the deposited data

Results flagged for a closer look

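4 targets had KO effects of opposite sign in the 2 layers that were at least 1.5-fold apart. The difference, KO effect in ectoderm minus KO effect in mesenchyme on the log2 scale, was 0.96 for Scrib, 0.91 for Arhgap17, 0.79 for Arhgef11 and -0.62 for Slk. It rests on 1 value per group and was not tested. The share of all genes that meet this rule was not counted, so nothing particular to the targets is read from the 4. Of all genes compared, 35.5% had a ratio below 0 in ectoderm and 63.4% in mesenchyme. The median difference over all genes was 0.19. With the transcript GC trend subtracted the differences were 0.17 for Scrib, 0.62 for Arhgap17, 0.46 for Arhgef11 and -0.59 for Slk. The KO effects of Scrib (-0.09 in ectoderm and -0.26 in mesenchyme) and Arhgef11 (-0.01 and -0.47) then had the same sign in both layers, and their differences were under 1.5-fold.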

How the results depend on the processing

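The number of targets at least 1.5-fold lower in KO mesenchyme, 3 as deposited, was 1 after quantile normalization, 0 with the GC trend subtracted and 0 with the GC and length trends subtracted. It was 4 with the second Magi1 row and 3 under the other alternatives run. Quantile normalization left Scrib past the fold, with Arhgef11 at -0.53 and Arhgap17 at -0.53. With GC and length subtracted Scrib was at -0.14, Arhgef11 at -0.35 and Arhgap17 at -0.39, and each of the 3 was below 0 in all 11 settings. The 11 include the values as deposited, and the filters and the second Magi1 row cannot change the ratio of a gene other than Magi1. Such settings repeat a value and add no support for its sign. The cause was not tested. These corrections also shift all genes: the median of all genes in mesenchyme was -0.12 as deposited, 0.02 after quantile normalization and 0.03 with GC subtracted. Over all genes, 332 were higher and 1902 lower in KO mesenchyme as deposited, 639 higher and 968 lower after quantile normalization, 590 and 1164 when centred on the median, and 647 and 334 with GC subtracted. In KO ectoderm 686 were higher and 63 lower as deposited, 467 and 131 after quantile normalization, 362 and 97 with the mesenchyme share subtracted, 317 and 40 at a mean of 5 TPM or more, and 239 and 29 with a pseudocount of 5 TPM. The difference of the KO effects was past 2-fold for 1052 genes upwards and 85 downwards as deposited, 479 and 179 after quantile normalization, and 309 and 164 with GC subtracted. All other counts of targets were 0 as deposited and 0 under each alternative run, which says little about their stability. Exoc7 in mesenchyme was below 0 in 9 of 11 settings, and above 0 with the GC trend or the GC and length trends subtracted. Slk was below 0 in ectoderm and above 0 in mesenchyme in every setting run. Some of these settings again repeat the value as deposited. No paired analysis was possible because the table holds 1 column per group, and for the same reason no replicate could be left out. Depth per library is unknown, so the precision of low values such as those of Cd44 cannot be given.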
